A study of Mus musculus with 20 samples.

Results

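Mitochondrial ribosomal protein genes, the nuclear genes named Mrpl and Mrps, were described across livers of mouse fetuses whose dams had been fasted. Members were chosen by name alone: gene symbols made of Mrpl or Mrps, a number and at most 1 further letter. This gave 77 members of the 45802 gene entries in the table, 50 of the large and 26 of the small ribosomal subunit. The remaining member, Mrps36, is counted by current naming as a subunit of the 2-oxoglutarate dehydrogenase complex and not as a ribosomal protein. Mrps18a and Mrps30 carry a small-subunit symbol, but their proteins sit in the large subunit and are counted there. All 77 had a value in each of the 20 libraries and all passed the minimum level for testing, as did 11807 genes in total. Pseudogene entries such as Mrpl23-ps1 are not members.

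RNA was measured by bulk sequencing of poly(A)-selected, stranded libraries from the livers of 20 fetuses on a C57BL/6 background at E17.5, after a maternal fast of 24 h. There were 5 groups of 4 fetuses, and in each group 2 were female and 2 male. HetDam_HetFetus were fetuses heterozygous for Ppara from heterozygous dams. KODam_HetFetus were heterozygous fetuses from Ppara knockout dams, and KODam_KOFetus were knockout fetuses from knockout dams, so that every fetus of the Ppara arm carried at least 1 knockout allele. In the Cpt2 arm, FloxDam_FloxFetus were fetuses with floxed Cpt2 (Cpt2f/f) from Cpt2f/f dams, which the sample titles call wild type. Cpt2LKODam_FloxFetus were Cpt2f/f fetuses from Cpt2f/f dams that carried Albumin-Cre, a recombinase driven by a hepatocyte promoter, and none of the fetal genotype labels of that arm name Cre. PPARA is a transcription factor that induces the genes of fat burning during a fast, and CPT2 lets long-chain fatty acids enter that pathway inside mitochondria.

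Mitochondrial ribosomes translate the few proteins that mitochondrial DNA encodes, all of them subunits of the oxidative phosphorylation complexes. Their rRNA is made in the mitochondrion, while their proteins are encoded in the nucleus, made in the cytosol and imported, so that genes of both genomes must be expressed to build a ribosome. Some of the proteins have counterparts in bacterial ribosomes, and others occur in mitochondrial ribosomes alone. In liver, where mitochondria carry out fatty acid oxidation, ketone body formation and part of the urea cycle, this translation supplies the respiratory chain that those pathways feed.

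Values were quantile-normalized log2 values, so that a difference between groups is a log2 fold change; the linear quantity is not named and the read depth is unknown. Between 23334 and 26255 genes had a value in a library. Ppara transcript was present in the knockout libraries (log2 values of 1.87 to 2.48 in KODam_KOFetus against 2.86 to 3.47 in HetDam_HetFetus). In the heterozygous fetuses of KODam_HetFetus it ran from 1.81 to 3.22, which overlaps both groups. Whether its reads lie inside the deleted part is not known, so it does not check the labels. Hepatocyte markers were high in each of the 20 libraries, with mean log2 values of 10.9 to 11.8 over 10 markers. In 6 libraries the markers of pancreas, gut or skeletal muscle stood at least 2 above the median library on the log2 scale: HetDam_HetFetus replicates 1, 2 and 4, KODam_KOFetus replicate 2 and Cpt2LKODam_FloxFetus replicates 1 and 2. In 4 of them (HetDam_HetFetus 1 and 4, KODam_KOFetus 2 and Cpt2LKODam_FloxFetus 2) the excess was at least 3. The descriptions also give each fetus an unexplained number. KODam_HetFetus 1 shares it with KODam_HetFetus 2, KODam_KOFetus 1 with KODam_KOFetus 2, and FloxDam_FloxFetus 3 with FloxDam_FloxFetus 4; these pairs were taken as presumed littermates. Counts of members called are given with and without the other-tissue libraries, and with and without each pair where the pair changes them. In bulk tissue, fewer cells of a type and less RNA per cell cannot be told apart.

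The members moved up and down together from library to library. Their mean log2 value was 3.87, 4.00, 3.74 and 3.79 in the HetDam_HetFetus libraries, 3.75, 3.73, 4.06 and 4.02 in KODam_HetFetus, and 3.90, 4.11, 3.80 and 3.96 in KODam_KOFetus. It was 4.23, 4.27, 4.00 and 3.90 in FloxDam_FloxFetus and 4.24, 4.41, 4.04 and 4.05 in Cpt2LKODam_FloxFetus. Within KODam_HetFetus the presumed littermates, replicates 1 and 2, lay below the other libraries, and within FloxDam_FloxFetus the presumed littermates, replicates 3 and 4, were the lower pair. Ranges of the 3 Ppara-arm groups overlapped, and so did those of the 2 Cpt2-arm groups. The highest value of all belonged to Cpt2LKODam_FloxFetus replicate 2, the library with the strongest pancreas markers, whose part in that value was not tested. Large and small subunit means stayed close: their difference lay between -0.09 and 0.02 in the 20 libraries. Over the members, the median within-group SD was 0.203 on the log2 scale and 0.144 after the library's own member mean was taken off, a decrease seen for 72 of 77 members.

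**Figure D1:**
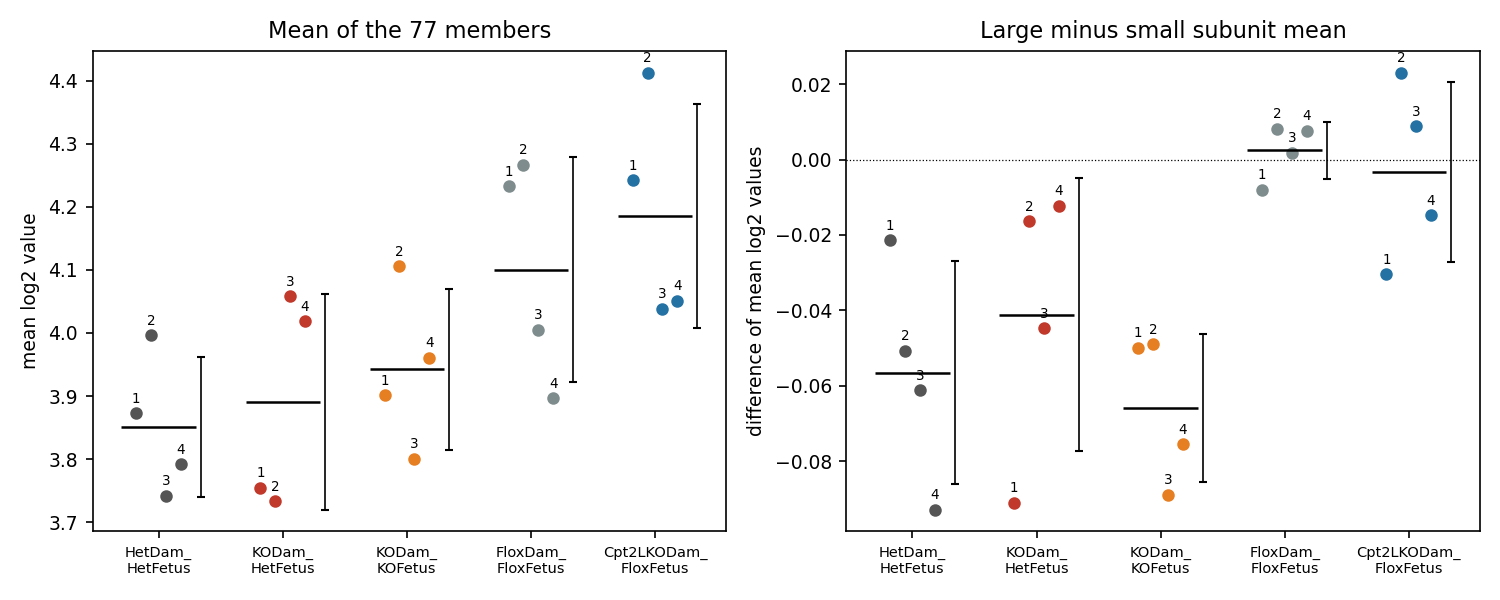
Mean log2 value of the 77 members (left) and the large minus the small subunit mean (right) in each of the 20 libraries, by group. Points are libraries numbered by replicate, horizontal lines are group means and bars are SDs (n = 4); library means run from 3.73 to 4.41 and the subunit difference stays between -0.09 and 0.02.

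Single members differed widely in their values, from a mean log2 value of 1.38 over the 20 libraries for Mrpl23 to 6.59 for Mrpl52. The values are not known to be scaled for transcript length, so this order is one of table values and not of transcript number. Mrpl12, whose protein forms part of the stalk that recruits translation factors, followed at 6.34, and Mrpl33 at 5.57. At the lower end, Mrpl1 had a mean of 1.45 and Mrps25 of 1.63. The low value of Mrpl23 is uncertain: Mrpl23-ps1, a pseudogene entry named as its copy, stood at 5.02 to 6.06 in the 20 libraries, so reads could have been assigned to either entry. Mrpl23 also had the widest within-group SD of the members, 0.611, and Mrpl37 the narrowest, 0.090.

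Loss of Ppara in the dam was examined in heterozygous fetuses, KODam_HetFetus against HetDam_HetFetus. The mitochondrial ribosomal protein genes did not move as a block: 10 members rose and 8 fell, and the other 59 did not pass the test (limma, adjusted p under 0.05 over all genes). The risers were 13.0% of the members, where 26.4% of all 11800 genes tested rose, and the fallers were 10.4%, where 12.6% of all genes fell. The median log2 difference was 0.10 over the members and 0.14 over all genes. A positive difference was found for 48 of 77 members and for 7129 of 11800 genes. The 2 groups did not overlap for 21 of the 77 members, against 36.3% of all genes with a value in each library of both groups. Of the 50 large subunit members 7 rose and 7 fell. Of the 26 small subunit members 3 rose and 1 fell, Mrps15. Among the 30 large subunit members with a bacterial counterpart 4 rose and 4 fell, and among the 20 specific to mitochondria 3 rose and 3 fell. The 16 small subunit members with a bacterial counterpart held 2 rises and 1 fall, and the 10 specific to mitochondria 1 rise. Mrps18a and Mrps18b, although relatives of a bacterial small subunit protein, were counted as specific to mitochondria, and neither was called.

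**Figure D2:**
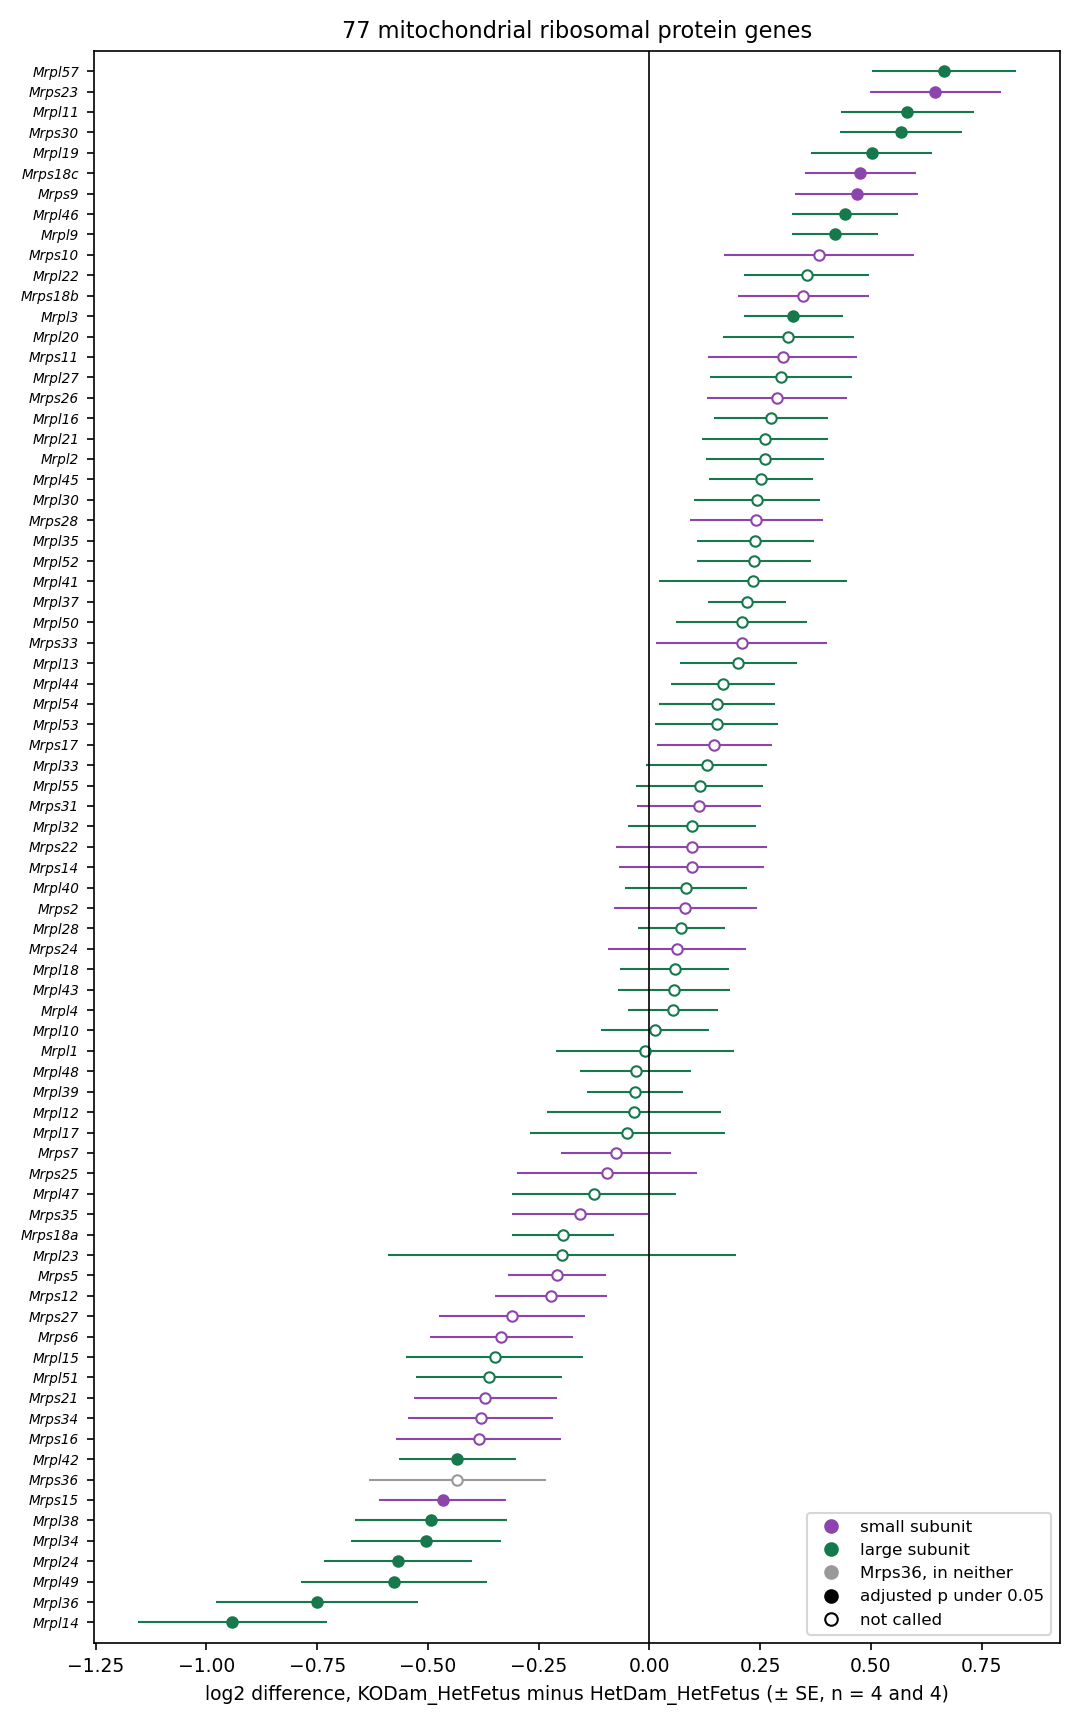
Log2 difference of each of the 77 members between KODam_HetFetus and HetDam_HetFetus (horizontal axis, with SE, n = 4 and 4), ordered from the largest fall at the bottom to the largest rise at the top. Purple marks the small and green the large subunit, and filled points passed an adjusted p of 0.05; 10 filled points lie above 0 and 8 below, from -0.94 (Mrpl14) to 0.67 (Mrpl57).

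Rises in the large subunit were led by Mrpl57 (chromosome 14, 57826228 to 57829087, GRCm38.p6), which encodes a small protein found in mitochondrial ribosomes alone. Its log2 values were 2.95, 3.25, 2.60 and 2.44 in the HetDam_HetFetus libraries and 3.54, 3.50, 3.51 and 3.35 in KODam_HetFetus. The 4 fetuses of knockout dams all lay above the 4 controls, and the log2 difference was 0.67 ± 0.16 (SE, limma adjusted p = 0.00394), or 1.59-fold. Mrpl11 (chromosome 19, 4962152 to 4966995), whose bacterial counterpart lies at the base of the stalk, stood at 2.26, 2.44, 2.08 and 2.02 in HetDam_HetFetus and 2.76, 2.61, 2.88 and 2.88 in KODam_HetFetus. Its groups did not overlap either, and the log2 difference was 0.58 ± 0.15 (adjusted p = 0.00554). Mrps30 (chromosome 13, 118380110 to 118387252), a large subunit protein despite its name, went from 3.70, 3.79, 3.61 and 3.73 to 4.31, 4.19, 4.30 and 4.30. That is a log2 difference of 0.57 ± 0.14 (adjusted p = 0.00377), again without overlap. Mrpl19 (chromosome 6, 81957826 to 81965949) rose by 0.50 ± 0.14 (adjusted p = 0.00787), from 1.27 to 1.67 in the controls to 1.71 to 2.19.

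Mrpl9 (chromosome 3, 94443154 to 94448708), the counterpart of bacterial protein L9, had the smallest SE of the rising genes. Its log2 values were 4.42, 4.37, 4.35 and 4.40 in HetDam_HetFetus and 4.75, 4.59, 4.93 and 4.96 in KODam_HetFetus, a log2 difference of 0.42 ± 0.10 (adjusted p = 0.00281). Mrpl46 rose by 0.44 ± 0.12 (adjusted p = 0.00795), from 3.61 to 3.78 in the controls to 3.92 to 4.33. Mrpl3 (chromosome 9, 105053268 to 105077466), the counterpart of a bacterial protein close to the peptidyl transferase centre, stood at 3.70, 3.78, 3.49 and 3.84 in HetDam_HetFetus and at 4.02, 4.01, 4.00 and 4.07 in KODam_HetFetus. Its groups did not overlap, and the log2 difference was 0.33 ± 0.11 (adjusted p = 0.0271). The call was lost in 9 of 35 alternatives, both other scalings among them, and the adjusted p-values over the 35 ran from 0.0173 to 0.124.

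In the small subunit, Mrps23 (chromosome 11, 88194106 to 88211507), a protein specific to mitochondrial ribosomes, rose by 0.65 ± 0.15 (adjusted p = 0.00263). Its log2 values were 3.63, 3.82, 3.48 and 3.29 in HetDam_HetFetus and 4.06, 3.79, 4.53 and 4.41 in KODam_HetFetus. Replicate 2 of KODam_HetFetus lay within the control range, while the other libraries of that group lay above it. Mrps18c (chromosome 5, 100798759 to 100804467), 1 of 3 mitochondrial relatives of bacterial S18, stood at 5.06, 4.99, 4.96 and 4.91 in HetDam_HetFetus and 5.60, 5.23, 5.48 and 5.52 in KODam_HetFetus. The groups did not overlap, and the log2 difference was 0.48 ± 0.13 (adjusted p = 0.00647). Its relatives did not pass the test: Mrps18b differed by 0.35 (adjusted p = 0.0697) and Mrps18a, the large subunit relative, by -0.20 (adjusted p = 0.188). Mrps9, the counterpart of a bacterial head protein of the small subunit, rose by 0.47 ± 0.14 (adjusted p = 0.0127), with overlapping groups (2.66 to 3.43 and 3.29 to 3.73).

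Promoter sequences are shown for 4 rising members and 1 falling member, picked after their values were seen because they hold a motif of a factor known for mitochondrial genes, so that the matches can be read in place. Each line gives 200 bases before and 30 after the RefSeq start site of GRCm38.p6, 5′ to 3′ on the coding strand, and capitals mark the match. The motifs searched on both strands were GCATGCGC for NRF1, CCGGAAG for ETS factors such as GABPA, and AAGATGGCG for YY1. The 2 NRF1 matches of Mrpl9 overlap on opposite strands and are written as 1 run of capitals. The Mrpl9 window is chr3:94443136-94443365, plus strand, that of Mrpl57 chr14:57826039-57826268, plus strand, and that of Mrpl3 chr9:105053068-105053297, plus strand. Those of Mrps23 and Mrpl34 are chr11:88204188-88204417 and chr8:71464726-71464955, both on the plus strand; the starts used for Mrps23, Mrpl9 and Mrpl57 lie inside their annotated gene spans.
Mrpl9: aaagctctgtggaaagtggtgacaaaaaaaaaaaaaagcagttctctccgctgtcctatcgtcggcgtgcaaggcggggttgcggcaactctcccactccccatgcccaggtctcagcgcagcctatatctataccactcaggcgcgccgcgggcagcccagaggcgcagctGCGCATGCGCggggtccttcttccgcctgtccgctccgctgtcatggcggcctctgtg
Mrpl57: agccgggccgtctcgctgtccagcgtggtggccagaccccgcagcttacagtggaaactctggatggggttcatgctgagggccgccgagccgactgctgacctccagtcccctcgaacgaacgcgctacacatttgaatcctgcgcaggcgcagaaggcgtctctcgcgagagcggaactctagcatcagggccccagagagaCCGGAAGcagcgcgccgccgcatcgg
Mrpl3: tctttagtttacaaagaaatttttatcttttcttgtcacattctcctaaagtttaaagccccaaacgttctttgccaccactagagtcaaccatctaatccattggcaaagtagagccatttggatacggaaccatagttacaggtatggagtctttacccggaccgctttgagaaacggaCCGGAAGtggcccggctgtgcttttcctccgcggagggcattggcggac
Mrps23: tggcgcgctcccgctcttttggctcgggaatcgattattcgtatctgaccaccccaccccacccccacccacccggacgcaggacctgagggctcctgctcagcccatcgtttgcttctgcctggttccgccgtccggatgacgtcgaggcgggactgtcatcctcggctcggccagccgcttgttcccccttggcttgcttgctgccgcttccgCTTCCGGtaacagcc
Mrpl34: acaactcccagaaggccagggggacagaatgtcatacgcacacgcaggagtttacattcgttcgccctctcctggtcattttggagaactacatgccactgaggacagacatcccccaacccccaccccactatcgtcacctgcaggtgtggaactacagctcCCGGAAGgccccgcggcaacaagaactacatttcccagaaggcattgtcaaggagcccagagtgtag

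Over the family, 68 of 77 members had a RefSeq promoter of 250 bases before and 50 after the start. The ETS letters occurred in 24 of them (35.3%), against 19.1% of the promoters of 8711 tested genes and 9.12% of all 27025 promoters. NRF1 letters occurred in 8 (11.8%), against 5.59% of tested genes and 2.80% of all promoters, and YY1 letters in 8 (11.8%), against 3.47% and 1.49%. Of 3 common promoter elements, the CCAAT box was in 39.7% of the members and 38.9% of the tested genes, the E-box CACGTG in 7.35% and 10.5%, and TATAAA in 5.88% and 7.13%. Among the 9 rising members with a promoter 4 held the ETS letters and 1 those of NRF1. Among the 7 falling members with one, 1 held the ETS letters and 2 those of YY1. A further shared feature was position: 18 of 77 members (23.4%) start within 1000 bases of a protein-coding gene that runs the other way, against 10.8% of 10738 tested protein-coding genes. Mrpl57 lies 49 bases from Ska3, which rose by 1.23 on the log2 scale (adjusted p = 4.52e-04), and Mrps18c lies 29 bases from Helq, which rose by 0.73 (adjusted p = 0.00876). Mrpl49, which fell, lies 59 bases from Fau, whose log2 difference was -0.05 (adjusted p = 0.889), and Mrps18b, which was not called, lies 45 bases from Ppp1r10, which fell by 1.12 (adjusted p = 0.0333). Called partners also stood beside members that were not called at Mrpl2 (Klc4, -0.79), Mrpl32 (Psma2, 0.44), Mrpl40 (Hira, 0.96) and Mrpl51 (Ncapd2, 0.59). In this comparison 39.0% of all genes tested were called in either direction, so a called partner is common. The part of position was not tested.

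Of the 8 falls 7 were in large subunit genes. Mrpl14 (chromosome 17, 45685722 to 45698495), whose bacterial counterpart lies on the face that meets the small subunit, stood at log2 values of 3.26, 3.55, 3.22 and 3.23 in HetDam_HetFetus and 2.13, 2.62, 2.38 and 2.37 in KODam_HetFetus. No library of either group reached the other, and the log2 difference was -0.94 ± 0.21 (adjusted p = 0.00245), or 1.92-fold lower. Mrpl36 (chromosome 13, 73328503 to 73332178), the counterpart of a small zinc-binding bacterial protein, stood at 4.11, 4.62, 4.12 and 4.04 in HetDam_HetFetus and 3.24, 3.03, 3.73 and 3.89 in KODam_HetFetus. Its log2 difference was -0.75 ± 0.23 (adjusted p = 0.0148), and within KODam_HetFetus the presumed littermates were the lower pair. Mrpl24 (chromosome 3, 87918131 to 87923450) fell by 0.57 ± 0.17 (adjusted p = 0.0124), from 3.79 to 4.11 in the controls to 3.13 to 3.61. Mrpl49, found in mitochondrial ribosomes alone, fell by 0.58 ± 0.21 (adjusted p = 0.0359), from 3.76 to 3.98 to 2.98 to 3.64.

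Mrpl34 (chromosome 8, 71464926 to 71465753) went from log2 values of 4.86, 5.08, 4.99 and 4.98 in HetDam_HetFetus to 4.34, 4.61, 4.49 and 4.46 in KODam_HetFetus. The groups did not overlap, with a log2 difference of -0.50 ± 0.17 (adjusted p = 0.0246). Mrpl38 fell by 0.49 ± 0.17 (adjusted p = 0.0288), from 4.18 to 4.37 to 3.37 to 4.00. Mrpl42 (chromosome 10, 95480805 to 95501949), a protein specific to mitochondria, had even control values, at 5.38, 5.36, 5.40 and 5.37, against 4.83, 4.84, 4.97 and 5.15 in KODam_HetFetus. Its log2 difference was -0.43 ± 0.13 (adjusted p = 0.0148). Mrps15, the only small subunit member that fell and named for that after its value was seen, stood at 4.37 to 4.63 in HetDam_HetFetus and 3.79 to 4.16 in KODam_HetFetus, a log2 difference of -0.47 ± 0.14 (adjusted p = 0.0156).

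Libraries bore on these counts. Without KODam_HetFetus replicates 1 and 2 (presumed littermates), 16 members rose and 2 fell: 9 of the 10 risers kept their call (Mrpl3 lost it), and of the 8 fallers Mrpl14 and Mrps15 kept theirs. All genes lost falls as well, from 12.6% to 4.43%. Rises went opposite ways: the members' count went from 10 to 16 of 77, while the share of all genes went from 26.4% to 19.7%. The lower share of rises among the members than among all genes was thus not seen in that fit. With litter as a random block, 11 members rose and 6 fell, Mrpl49 and Mrpl38 losing their calls, against 22.9% and 9.07% of all genes. Leaving out single libraries took the count of falls to 4 without HetDam_HetFetus replicate 2, 4 without KODam_HetFetus replicate 1 and 5 without KODam_HetFetus replicate 2. Shares of all genes are not given for these single-library fits, so these counts are not read as particular to the members. Without the 4 libraries with the strongest other-tissue markers 7 members rose and 4 fell, all among those called above, where 20% of all genes rose and 6.96% fell. Single libraries also ended calls: Mrpl36 was lost without HetDam_HetFetus 2 or KODam_HetFetus 2, Mrpl34 without HetDam_HetFetus 2 or KODam_HetFetus 1, and Mrpl24 without KODam_HetFetus 1. Mrps15 was lost without KODam_HetFetus 3 and Mrps9 without HetDam_HetFetus 3. Mrpl49, Mrpl38 and Mrpl3 were each lost without any 1 of 4 or 5 libraries (Mrpl49: HetDam_HetFetus 1, 2 and 4 and KODam_HetFetus 1 and 2; Mrpl38: HetDam_HetFetus 2 and 4 and KODam_HetFetus 1 and 2; Mrpl3: HetDam_HetFetus 1 and 3 and KODam_HetFetus 1 and 4). Mrpl57 kept its call in all 35 alternatives, and Mrpl14, Mrpl9, Mrpl11, Mrpl19, Mrps18c, Mrps23 and Mrps30 in 34. Some of the 35 left out only libraries of other groups, which changes the shared spread but not the difference itself. Such alternatives are a weak check of these calls. Without all 6, which leaves 1 HetDam_HetFetus library assumed to vary like the others, 2 rose (Mrpl57 and Mrps9) and none fell at an adjusted p under 0.05, where 6.93% of all genes rose and 1.69% fell. Rescaling by a trimmed mean gave 9 rises and 12 falls, and a second quantile normalization over the tested genes 9 and 9, so the share of rises among called members went from 10 of 18 to 9 of 21 and 9 of 18. All genes turned the same way: 21.5% rose and 16.8% fell with the trimmed mean, and 20.8% and 17% with quantiles.

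Marker transcripts of cell types and of proliferation were examined beside these genes, in a comparison where 26.4% of all genes rose and 12.6% fell. Of 12 markers of proliferating cells 9 rose and 0 fell in KODam_HetFetus, and the log2 of their summed level was 9.36 to 10.1 there against 8.73 to 9.21 in HetDam_HetFetus. Neutrophil and myeloid markers went the other way: 7 of 10 fell, with summed levels of 11.6 to 12.4 on the log2 scale against 12.4 to 13.0. Of 10 hepatocyte markers 1 rose, of 10 erythroid markers 1 rose, and none of these 20 fell. Macrophage markers were mixed, with 1 of 8 higher and 3 lower. None of the markers of these 5 lists was without a value in any of the 5 groups, while in each group 1 to 3 of 11 pancreas markers and 2 to 4 of 11 gut markers had none. The other-tissue markers were raised in 3 of 4 HetDam_HetFetus libraries and in none of KODam_HetFetus. The part of these cell types in the members' differences was not tested.

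The rest of the members chosen by role did not pass the test between KODam_HetFetus and HetDam_HetFetus. Some of their differences, such as that of Mrps16, were larger in size than that of the called Mrpl3. Mrps12, the counterpart of the bacterial decoding-centre protein, stood at log2 values of 4.42 to 4.83 in HetDam_HetFetus and 4.25 to 4.63 in KODam_HetFetus (difference -0.22, adjusted p = 0.173). Mrps5 had groups that did not overlap (4.19 to 4.31 and 3.92 to 4.16), yet its difference of -0.21 ± 0.11 did not pass (adjusted p = 0.144). Mrps16 likewise did not overlap (4.99 to 5.27 and 4.63 to 4.93), with a difference of -0.39 (adjusted p = 0.108). Mrps28 had 4.57 to 4.79 against 4.92 to 4.97, a difference of 0.24 (adjusted p = 0.212). Mrps7 (-0.08), Mrps2 (0.08), Mrps22 (0.10) and Mrps34 (-0.38) had adjusted p-values between 0.0725 and 0.715.

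Differences were near 0 for Mrpl10, the stalk protein that carries Mrpl12 (0.01), for Mrpl12 itself (-0.03) and for Mrpl4, whose counterpart lines the exit tunnel (0.05). Mrpl12 had log2 values of 6.00 and 5.64 in the presumed littermates of KODam_HetFetus and 6.75 and 6.55 in its other libraries, with the controls at 6.22 to 6.30 between them; in KODam_KOFetus the presumed littermates were the higher pair (6.07 and 6.46, against 5.79 and 6.06). Mrpl44 differed by 0.17 (adjusted p = 0.272). Mrps36, the dehydrogenase subunit, had a difference of -0.43 ± 0.20 (adjusted p = 0.0936) and overlapping groups (4.20 to 5.02 and 3.91 to 4.41).

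Knockout fetuses of knockout dams, KODam_KOFetus, were then set against the same HetDam_HetFetus libraries. Here 10 members rose (13.0%) and 1 fell (1.30%), where 17.4% of all genes rose and 7.31% fell. The median log2 difference was 0.12 for the members and 0.14 for all genes, with 51 of 77 members and 7355 of 11801 genes positive. Groups were apart for 15 of 77 members and for 26.4% of all genes. Since this comparison and the maternal one both use the 4 HetDam_HetFetus libraries, their values are given side by side and not as separate evidence. Mrps23 rose by 0.60 ± 0.15 (adjusted p = 0.00745), with 4.09, 4.18, 4.07 and 4.29 in KODam_KOFetus above the 4 control values. Mrpl57 rose by 0.57 ± 0.16 (adjusted p = 0.0159), with 3.10, 3.51, 3.42 and 3.51, of which the lowest lay within the control range. Mrps30 rose by 0.52 ± 0.14 (adjusted p = 0.0115), Mrps9 by 0.51 ± 0.14 (adjusted p = 0.0127) and Mrps18c by 0.51 ± 0.13 (adjusted p = 0.00767), each without overlap between the groups.

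Further rises in KODam_KOFetus were those of Mrpl11 (0.47, adjusted p = 0.0293), Mrps18b (0.45, adjusted p = 0.0338), Mrpl46 (0.40, adjusted p = 0.0211), Mrpl9 (0.37, adjusted p = 0.0115) and Mrpl3 (0.36, adjusted p = 0.0253). Mrpl9 stood at 4.73, 4.72, 4.76 and 4.80, all above the 4 controls. Mrpl42 fell by 0.41 ± 0.13 (adjusted p = 0.0301), to 4.94, 5.21, 4.77 and 4.95. Mrpl14, the largest faller of the first comparison, had a log2 difference of -0.48 that was not called here, with values of 3.01, 3.25, 2.26 and 2.82. Mrpl36 differed by -0.23 and Mrpl24 by -0.15.

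Without the 4 libraries with the strongest other-tissue markers 1 member rose (Mrps18c) and 1 fell (Mrpl42), where 10.5% of all genes rose and 4.4% fell. Without the 6 libraries 1 rose (Mrps9) and 0 fell, against 3.08% and 1.23% of all genes. Under either other scaling 7 members rose, Mrpl11, Mrps18b and Mrpl3 losing their calls (all genes 13.2% and 12.5%), and Mrpl11 and Mrps18b also lost theirs without a filter on low values. Without KODam_KOFetus replicates 1 and 2 (presumed littermates) 7 rose, again without Mrpl11, Mrps18b and Mrpl3, and 2 fell, Mrpl42 and Mrpl14. The 10 rises became 5 without HetDam_HetFetus replicate 3 or KODam_KOFetus replicate 4, and the fall of Mrpl42 was lost without any 1 of 7 libraries, the 4 of HetDam_HetFetus and KODam_KOFetus replicates 1, 3 and 4. Without KODam_KOFetus replicate 2, which carried muscle markers, 3 members fell, and without Cpt2LKODam_FloxFetus replicate 4, 2. Shares of all genes are not given for the fits without single libraries or without this group's presumed littermates. The counts of those fits are therefore not read as particular to the members. Of the rises, Mrpl57 and Mrpl11 were lost without HetDam_HetFetus 3, HetDam_HetFetus 4 or KODam_KOFetus 4, and Mrpl46 without HetDam_HetFetus 3 or KODam_KOFetus 4. Mrpl3 was lost without HetDam_HetFetus 3, KODam_KOFetus 1 or KODam_KOFetus 4, and Mrps18b without HetDam_HetFetus 1, 3 or 4 or KODam_KOFetus 3 or 4. Mrps18c and Mrps9 kept their call in 34 of 35 alternatives, some of which left out only libraries of other groups and so kept the difference unchanged. Proliferating-cell markers were higher here too (7 of 12 rose, with summed log2 levels of at least 9.41), and 4 of 10 neutrophil and myeloid markers fell. Of all genes 17.4% rose and 7.31% fell, and the part of these markers was not tested.

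Loss of Ppara in the fetus was examined within knockout dams, KODam_KOFetus against KODam_HetFetus. None of the 77 members was called in either direction by limma, where 0.0254% of all genes rose and 0.796% fell, and 4 members had an unadjusted p under 0.05. The median log2 difference was 0.03 over the members and -0.01 over all genes. The smallest p-values belonged to Mrpl24, with a log2 difference of 0.42 ± 0.17 (adjusted p = 0.397), Mrpl36, with 0.52 ± 0.23 (adjusted p = 0.435), and Mrps6, with 0.35 ± 0.16 (adjusted p = 0.448). In these 3 genes the groups overlapped: Mrpl36 stood at 3.24, 3.03, 3.73 and 3.89 in KODam_HetFetus and 4.10, 4.49, 3.51 and 3.88 in KODam_KOFetus. The groups were apart for 0 of 77 members and for 5.67% of all genes. The KODam_HetFetus libraries enter both this comparison and the maternal one, with opposite sign.

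Loss of Cpt2 in the liver of the dam was examined in Cpt2f/f fetuses, Cpt2LKODam_FloxFetus against FloxDam_FloxFetus. Again 0 members rose and 0 fell by limma, as did 0% of all 11805 genes in each direction. At an unadjusted p under 0.05 there were 10 members (13.0%), against 11.1% of all genes. The median log2 difference was 0.08 over the members and -0.01 over all genes, with 56 of 77 members and 5778 of 11805 genes positive. Over the members it was -0.04 without the 6 libraries with other-tissue markers and -0.07 without FloxDam_FloxFetus replicates 3 and 4 (presumed littermates). Mrpl9 had the smallest p: it stood at 4.53, 4.50, 4.44 and 4.25 in FloxDam_FloxFetus and 4.69, 4.86, 4.60 and 4.84 in Cpt2LKODam_FloxFetus. These groups did not overlap, and the log2 difference was 0.32 ± 0.10 (adjusted p = 0.346). Mrps23 had 3.77, 3.93, 3.78 and 3.64 against 4.21, 4.31, 3.97 and 4.38, also without overlap, and a log2 difference of 0.44 ± 0.15 (adjusted p = 0.367). Mrpl45, whose protein sits at the tunnel exit and holds the ribosome to the inner membrane, differed by 0.30 ± 0.12 (adjusted p = 0.377), with overlapping groups (3.06 to 3.52 and 3.43 to 3.84). Groups were apart for 4 of 77 members, against 6.04% of all genes.

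**Figure D3:**
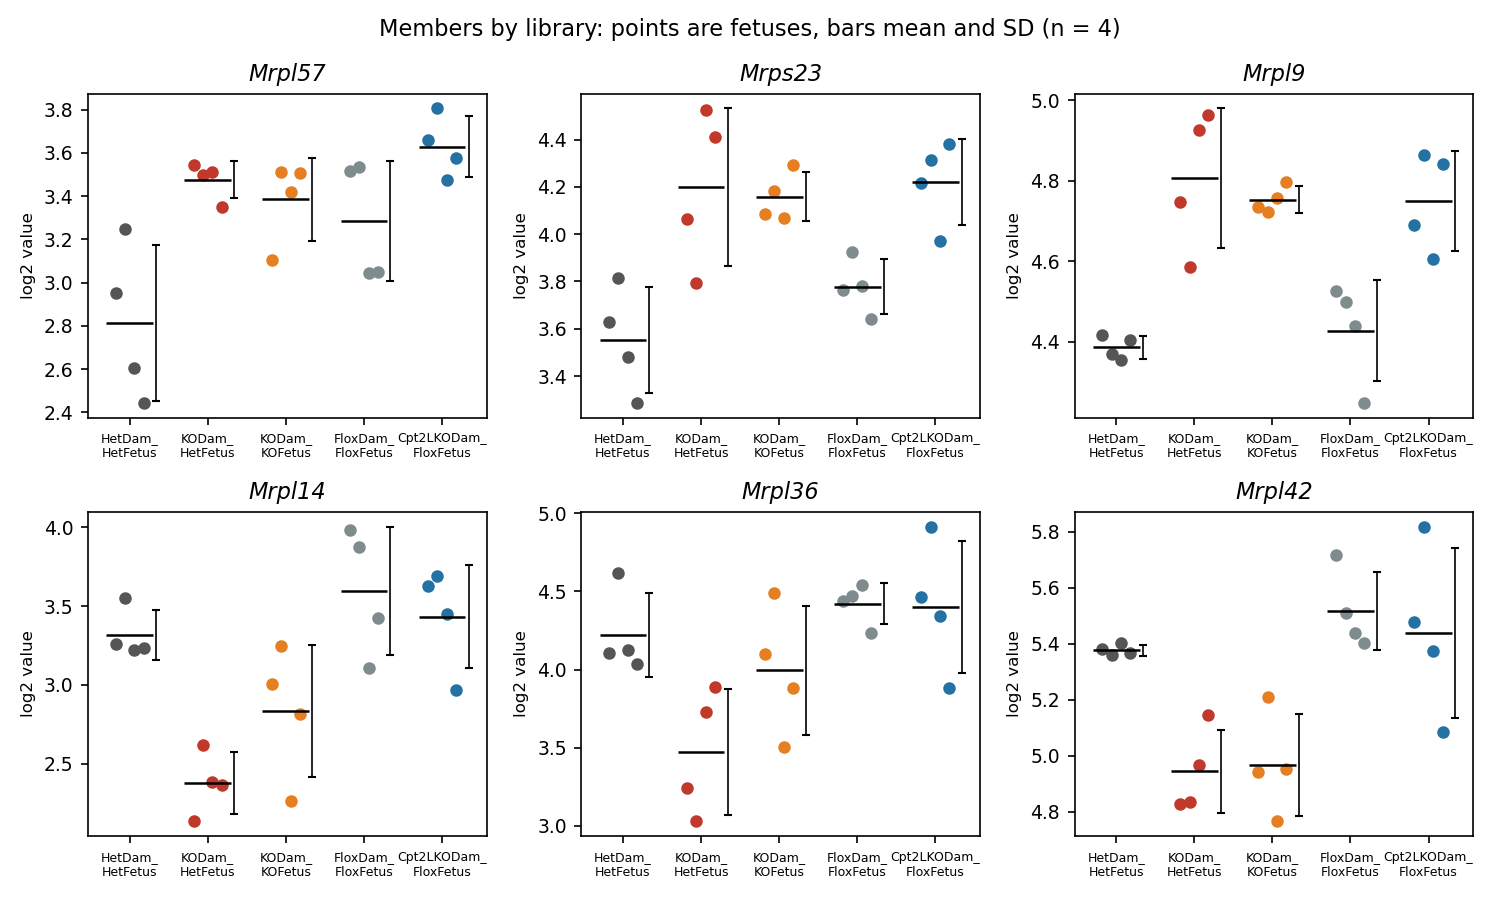
Log2 values of 6 members in each of the 20 libraries, by group; points are fetuses, horizontal lines are means and bars are SDs (n = 4), and each panel has its own vertical axis. Mrpl57, Mrps23 and Mrpl9 (top) are higher and Mrpl14, Mrpl36 and Mrpl42 (bottom) lower in KODam_HetFetus than in HetDam_HetFetus. Mrpl9 is at most 4.53 in the 8 libraries of fetuses from dams without a knockout and at least 4.59 in the other 12. This split was picked out after the values were seen, and the difference of Mrpl9 between the Cpt2-arm groups was not called.

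The difference between the maternal effects, Ppara minus Cpt2, passed the test for 0 of 77 members and for 0% of all 11798 genes in each direction, and 4 members had an unadjusted p under 0.05. The count over all genes rests on 1 library: without Cpt2LKODam_FloxFetus replicate 4, 343 genes were higher and 78 lower, though 0 members. Mrpl14 came closest, with a difference of -0.78 ± 0.30 (adjusted p = 0.179), since its log2 difference was -0.94 for the maternal Ppara knockout and -0.16 for the maternal Cpt2 knockout. Mrpl36 followed (-0.75 and -0.02, adjusted p = 0.221), and then Mrps18c (0.48 and 0.09, adjusted p = 0.24). A call in the Ppara arm and none in the Cpt2 arm is therefore not shown to be a difference between the arms for any member. Over the members the median of this difference was -0.01, and over all genes it was 0.15, which other scalings moved to 0.05 (trimmed mean) and 0.04 (quantiles).

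Control groups of the arms, HetDam_HetFetus and FloxDam_FloxFetus, were compared as well; neither had a knockout dam, and the labels differ in Ppara and Cpt2 genotype. By limma 0 members rose and 0 fell, where 0.0593% of all genes rose and 0.0763% fell. Even so, 73 of 77 members had a lower value in HetDam_HetFetus, as did 8603 of 11800 genes. The members' median log2 difference was -0.23, against -0.15 over all genes. An unadjusted p under 0.05 was found for 24 members (31.2%) and for 16.5% of all genes. Rescaling moved the median of all genes by more than 0.1, to -0.03 with a trimmed mean and -0.01 with quantiles of the tested genes, and the members' median to -0.11 and -0.15. Mrpl46 had the smallest p, with log2 values of 3.67, 3.78, 3.61 and 3.64 in HetDam_HetFetus and 4.33, 4.13, 4.07 and 3.88 in FloxDam_FloxFetus (-0.43 ± 0.12, adjusted p = 0.149). Mrpl35 (-0.45, adjusted p = 0.156) and Mrpl19 (-0.46, adjusted p = 0.159) came next, and the groups of both were apart. That held for 11 of 77 members and for 10.1% of all genes. Without FloxDam_FloxFetus replicates 3 and 4 (presumed littermates) 13 members were lower in HetDam_HetFetus, among them Mrpl46 (-0.56, adjusted p = 0.0371) and Mrpl35 (-0.70, adjusted p = 0.0177), where 1.2% of all genes were higher and 3.79% lower; the members' median was then -0.39. The HetDam_HetFetus libraries of this comparison are the controls of the maternal Ppara comparison, so rises such as those of Mrpl46 and Mrpl19 are measured from them. Beside FloxDam_FloxFetus, Mrpl46 in KODam_HetFetus (3.92 to 4.33) lay within the range of those libraries (3.88 to 4.33), while Mrpl9 in KODam_HetFetus (4.59 to 4.96) lay above theirs (4.25 to 4.53); these groups were not tested against each other.

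**Figure D4:**
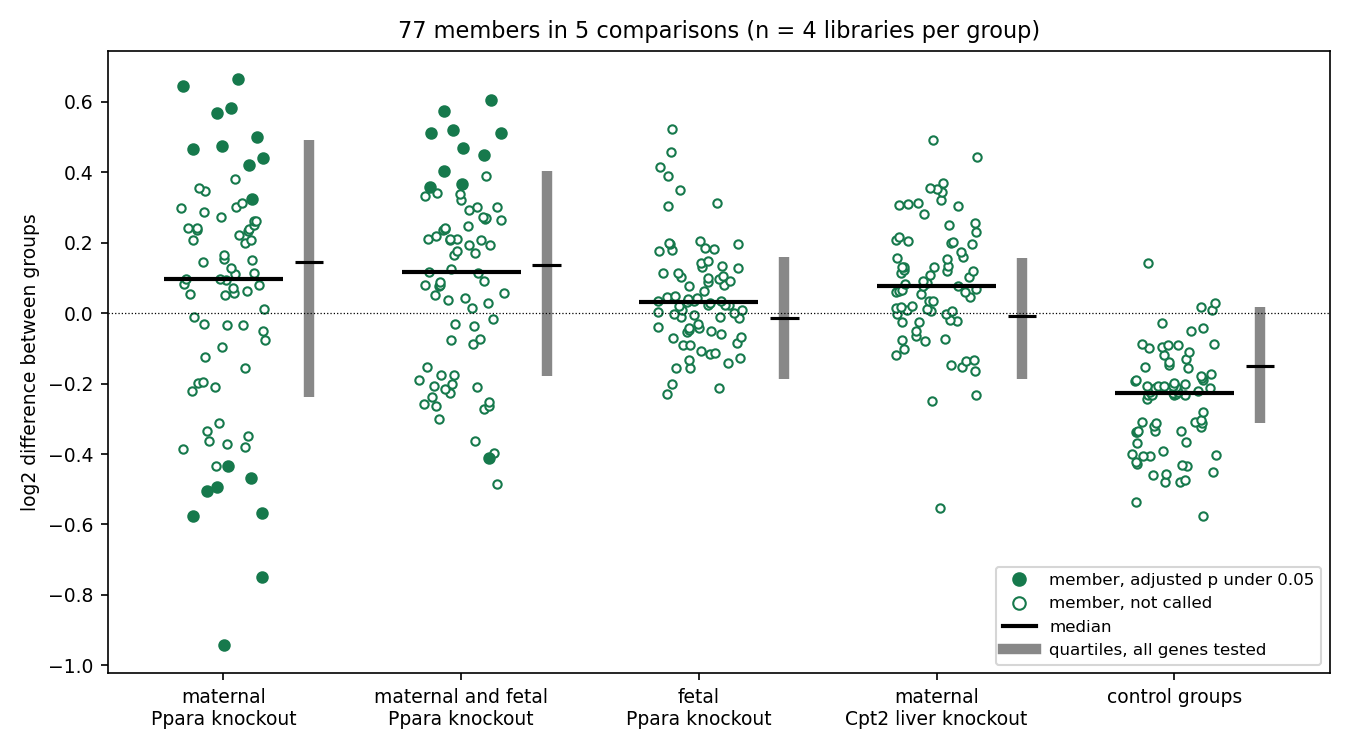
Log2 differences of the 77 members in 5 comparisons with n = 4 libraries per group; each point is a member, filled where the adjusted p is under 0.05, and black lines are medians. Grey bars give the quartiles and median of all genes tested: member medians are 0.10, 0.12, 0.03, 0.08 and -0.23 from left to right, and filled points occur in the first and second comparisons only.

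Genes that work with the mitochondrial ribosome were examined by role in KODam_HetFetus against HetDam_HetFetus. Most of these HetDam_HetFetus libraries carried other-tissue markers. How the related genes and lists that follow stand without those libraries is not given here, so their calls lack that check. The ribosome's own rRNA fell: mt-Rnr1, of the small subunit, by 0.95 ± 0.29 (adjusted p = 0.0163) and mt-Rnr2, of the large subunit, by 0.95 ± 0.24 (adjusted p = 0.00505). Both were read from poly(A)-selected libraries, and neither passed without the presumed littermates (-0.37, adjusted p = 0.366, and -0.59, adjusted p = 0.118). Of 25 tested genes for ribosome assembly and rRNA modification 6 rose (24%) and 4 fell (16%), shares near those of all genes (26.4% and 12.6%). Gtpbp10, a GTPase of large subunit assembly, rose by 0.96 ± 0.16 (adjusted p = 3.52e-04), the pseudouridine synthase gene Trub2 by 0.71 (adjusted p = 9.71e-04) and Eral1, a chaperone of the small subunit rRNA, by 0.56 (adjusted p = 0.00118). Ddx28, Dhx30 and Wbscr16 rose as well. Mettl15, which methylates the small subunit rRNA, fell by 0.85 (adjusted p = 0.0305), and Ngrn, Mtg2 and Tfb1m fell; the counts were 5 rises and 5 falls under either other scaling, and the 4 falls became 0 without the presumed littermates, when 7 genes of this list rose.

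Of 15 translation factors 0 rose and 5 fell (33.3%, against 12.6% of all genes), and 10 did not pass. Tufm, the elongation factor that brings aminoacyl-tRNA to the ribosome, fell by 0.86 ± 0.13 (adjusted p = 2.06e-04), and Lrpprc, which stabilizes mitochondrial mRNA, by 0.96 ± 0.24 (adjusted p = 0.00412). Gfm2 and Mrrf, which recycle ribosomes, and Taco1, a factor for Cox1 translation, also fell, by 0.57, 0.53 and 0.86. Tufm alone of the 5 kept its call without the presumed littermates (-0.90, adjusted p = 0.0022). Of 19 tested mitochondrial aminoacyl-tRNA synthetase genes and their kin 3 rose (Mars2 by 1.11, Qrsl1 by 0.84 and Fars2 by 0.35) and Yars2 fell by 0.45; without the presumed littermates Mars2 and Qrsl1 kept their calls and Fars2 and Yars2 did not (adjusted p = 0.131 and 0.388). Among 11 genes of mitochondrial transcription and DNA maintenance 3 fell (27.3%, against 12.6% of all genes): Polg, the DNA polymerase, by 0.66, Peo1, the helicase Twinkle, by 1.11, and Top1mt, the topoisomerase, by 1.37 (adjusted p = 0.00177, 0.00199 and 1.49e-04). These 3 kept their calls without the presumed littermates (adjusted p = 0.0275, 0.0484 and 0.00299). The 13 mRNAs that mitochondrial DNA encodes had a median log2 difference of -0.11, and none was called.

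**Figure D5:**
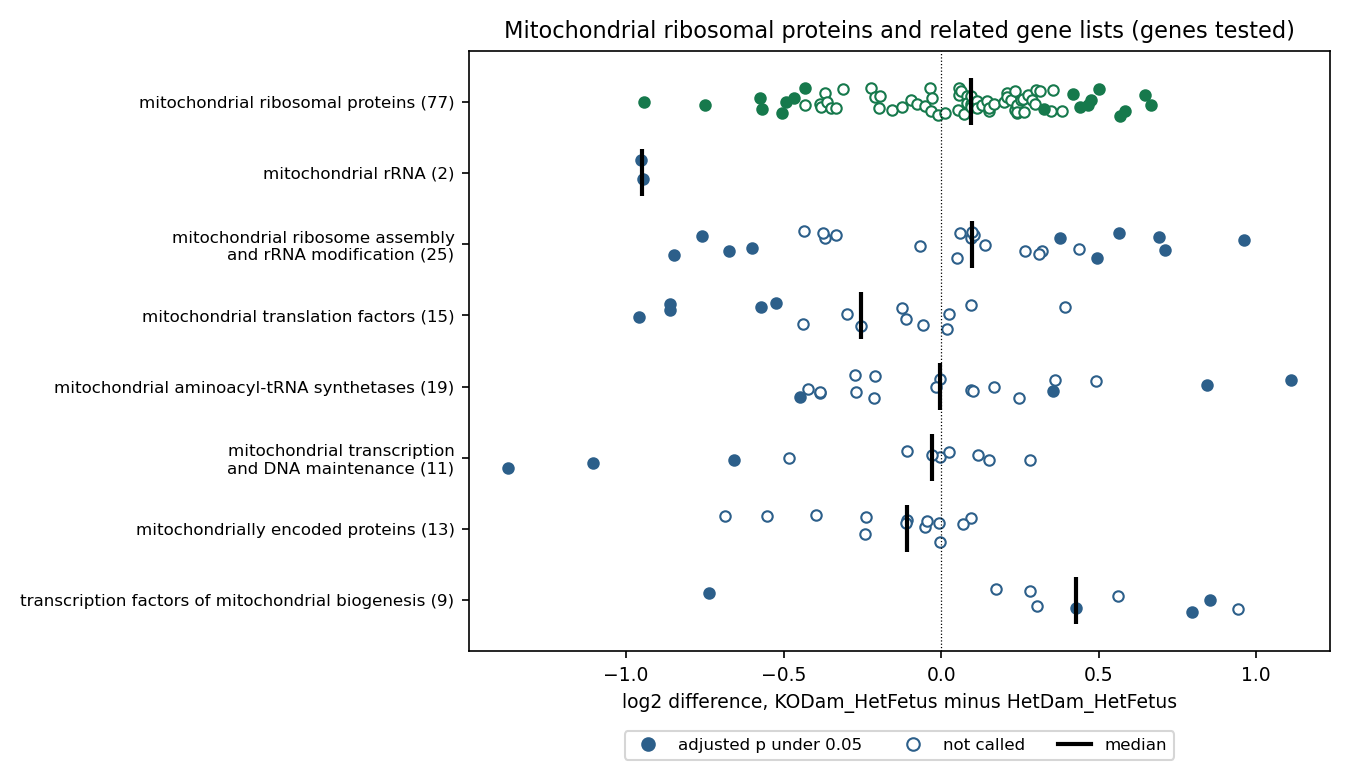
Log2 differences between KODam_HetFetus and HetDam_HetFetus (horizontal axis, n = 4 and 4) for the 77 members and for the tested genes of 7 related lists, whose sizes stand in parentheses. Filled points passed an adjusted p of 0.05 and black lines are medians; both rRNA points lie at -0.95 and the translation factors have filled points below 0 only.

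Of 9 genes for transcription factors and coactivators of mitochondrial genes 3 rose (33.3%) and 1 fell (11.1%), shares near those of all genes (26.4% and 12.6%). Nrf1 rose by 0.85 ± 0.12 (adjusted p = 1.65e-04), and the 2 parts of the ETS factor GABP, Gabpb1 and Gabpa, rose by 0.80 ± 0.16 (adjusted p = 9.32e-04) and 0.43 ± 0.13 (adjusted p = 0.0133). Yy1 differed by 0.17 (adjusted p = 0.265), and Esrra, a nuclear receptor of energy metabolism, fell by 0.74 ± 0.21 (adjusted p = 0.0112). The coactivator gene Ppargc1a differed by 0.94 ± 0.37 (adjusted p = 0.0521). The remaining genes of this list, Ppargc1b, Pprc1 and Myc, were not called. Without the presumed littermates Nrf1 and Gabpb1 kept their calls, while Gabpa (0.46, adjusted p = 0.0514) and Esrra (-0.36, adjusted p = 0.248) did not. In the maternal Cpt2 comparison none of these 9 factors was called. These are transcript levels, and the link between a factor and the members was not tested.

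Cytosolic ribosomal proteins and the respiratory chain were set beside them. Of 88 tested cytosolic ribosomal protein genes 24 rose, a share of 27.3% near the 26.4% of all genes, and 0 fell (median log2 difference 0.24, against 0.10 for the mitochondrial family); the count of rises was 4 with trimmed-mean scaling, 7 with quantiles of the tested genes and 1 without the presumed littermates. Of 81 nuclear-encoded subunits of oxidative phosphorylation 2 rose and 2 fell (median -0.03). Of 17 genes of the citric acid cycle 2 fell (11.8%, near the 12.6% of all genes), Ogdh by 1.02 (adjusted p = 0.00216) and Fh1 by 0.61 (adjusted p = 0.00387); Fh1 was not called without the presumed littermates (adjusted p = 0.0539). Among the 6 mitochondrial ribosomal proteins that carry other names, Ptcd3, a small subunit protein, fell by 0.54 ± 0.17 (adjusted p = 0.0155; 0.141 without the presumed littermates), and Dap3, Chchd1, Aurkaip1, Gadd45gip1 and Ict1 were not called (log2 differences from -0.26 to 0.14).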

How the data were processed

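The authors deposited 1 table of quantile-normalized log2 values for 20 libraries. The submitters' processing notes name GRCm38.p6, Partek 7.0 and bcl2fastq 2.17.1.14, with no order; per the labels' protocols, libraries were stranded, poly(A)-selected and read for 75 bases from 1 end. Which aligner was used, and how reads were counted, is not given in the sources used here. Depth is unknown, so no count test was run and the precision of low values cannot be stated.

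Groups came from the genotype labels. Genes with a linear value of at least 1 in at least 4 libraries (11807) entered 1 fit of all 20 libraries with a mean per group (limma 3.58.1 in R 4.3.3 with a trended prior; the residuals had 15 and the prior 4.09 degrees of freedom). P-values are two-sided and adjusted by Benjamini-Hochberg over all genes of a comparison, with calls under 0.05. Nothing says which fetuses shared a dam beyond the unexplained number, so p-values measure the spread between fetuses. Replicate numbers come from the titles. In the control comparison same-numbered fetuses deviated together (r = 0.239, 0.323, 0.261 and 0.127 over genes), and in each other comparison at least 1 of the 4 pairs did not exceed 0.1. The fit was also run on simulated data with independent noise in each library, which cannot show how presumed littermates bear on the p-values. With litter as a random block, the estimated correlation within a litter was 0.566. Members, lists and named genes were chosen with earlier results of these data known. Named genes are a panel by role, up to 6 called rises and 6 called falls of each comparison by size, up to 4 called members against the majority, the 3 highest and 3 lowest means, and, where fewer than 3 were called, the 3 smallest p-values; the rest are given by counts or added where a count of 5 or fewer asked for a name. The alternatives were other filters, scalings, a pseudocount of 1, terms for sex, replicate number and litter, and left-out libraries; leaving out the presumed littermates of KODam_KOFetus or of FloxDam_FloxFetus and the cut-off of 3 for other-tissue markers were added after seeing the data, the latter because the planned 2 leaves 1 HetDam_HetFetus library. Of 77 members all matched RefSeq, 68 with a promoter; sequences are RefSeq's for GRCm38.p6.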

Additional observations from a re-analysis of the deposited data

Results flagged for a closer look

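For 37 members and the members' mean, 190 sets of 4 libraries were examined for a library far from the other 3, by the ratio of its gap to the whole range (Dixon). Chance gives about 5% of sets, and 9 of the 190 were found, a number near that share. None of these gaps is therefore shown to be more than chance. Of the 9 sets, 5 concern HetDam_HetFetus, the controls of the Ppara arm. In replicate 2 of that group Mrpl14 stood at a log2 value of 3.55, above 3.22 to 3.26 in the others, and Mrpl36 at 4.62, above 4.04 to 4.12. Mrps22 was lower in the same library, at 3.07 against 3.35 to 3.40. Mrpl44 was low in HetDam_HetFetus replicate 3 (3.01 against 3.34 to 3.39), and Mrps15 high in replicate 4 (4.63 against 4.37 to 4.42). Mrps30 was tight in both knockout-dam groups of the Ppara arm, so small gaps stood out: 4.19 in KODam_HetFetus replicate 2 (the others 4.30 to 4.31) and 4.36 in KODam_KOFetus replicate 4 (the others 4.17 to 4.20). Among fetuses of Cpt2 knockout dams, Mrpl12 was high in replicate 2, at 6.95 against 6.42 to 6.48, the library with the strongest pancreas markers, whose part was not tested. Mrpl46 was low in replicate 3 of that group, at 4.07 against 4.39 to 4.45. No difference between the maternal Ppara and the maternal Cpt2 effect passed the test for any member.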

How the results depend on the processing

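For the maternal Ppara knockout, the 10 rises and 8 falls became 16 and 2 without the presumed littermates of KODam_HetFetus (all genes 2322 and 523, from 3117 and 1483), 2 and 0 without the 6 libraries with other-tissue markers (814 and 199), and 7 and 4 without the 4 strongest of these (2353 and 820), an alternative added after seeing the data. Leaving out 1 library gave 8 to 13 rises and 4 to 10 falls. For the maternal and fetal knockout, 10 rises and 1 fall became 1 and 0 without the 6 libraries, 1 and 1 without the 4 and 7 and 2 without the presumed littermates of KODam_KOFetus, and leaving out 1 library gave 5 to 12 rises and 0 to 3 falls. Fewer libraries leave less power, but the cause of these changes was not tested. Shares of all genes are not given here for the fits behind these ranges, or for the fit without the KODam_KOFetus pair. Those counts are therefore not read as particular to the members. Same-numbered fetuses did not deviate together in 4 of the 5 pairs of groups compared, and in the control groups they did; with the replicate block the counts were 10 and 9 for the maternal knockout and 10 and 2 for the maternal and fetal knockout, and it changed no other call of members (0 in the control groups). The members' median difference between the maternal effects went from -0.01 to 0.21 without the 6 libraries and to 0.15 without the presumed littermates of FloxDam_FloxFetus. In the control groups 0 lower members became 13 without those littermates, and the median went from -0.23 to -0.39. No called member changed sign under the 35 alternatives, and no member was called in the fetal, Cpt2 or between-arm comparisons under any of them. Alternatives that left out only libraries of other groups could not change a sign. Read depth is unknown, so its effect on low members such as Mrpl23 cannot be stated.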

Other observations

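In the maternal Ppara comparison the rising members had longer transcripts than the falling ones: medians of 1526 bases with 48.5% GC for the 10 that rose and 827 bases with 54.0% GC for the 8 that fell, against 1047 bases and 50.5% for all 77. Called genes overall lay the same way, with medians of 2266 bases and 49.3% GC for rises and 1706 bases and 52.5% GC for falls. Across the 77 members the rank correlation of the log2 difference was 0.030 with length and -0.179 with GC content; genes are not independent replicates, and the part of length and GC content was not tested.

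Of the 77 members 35 overlap a gene on the other strand, among them 10 of the 18 called. The partners of the largest falls were not called: Tmem63b beside Mrpl14 had a log2 difference of -0.36 (limma adjusted p = 0.0708) and Ndufs6 beside Mrpl36 one of 0.01 (adjusted p = 0.932). The libraries were stranded, but whether strand was used in counting is not known, so reads of overlapping genes may be shared.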
